A study of Arabidopsis thaliana with 12 samples.

Results

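GLX2-1, TPP2, AT2G42490 and ETFQO are 4 Arabidopsis thaliana genes whose names or families are tied to the breakdown of metabolites or proteins. Each has an array feature annotated with that gene alone, and they make up 4 of the 691 genes measured in that way. The arrays compared dark-adapted plants of the laf6 mutant, which the labels describe as lacking the transporter atABC1, with dark-adapted WT plants. Both groups are of the Landsberg ecotype, total RNA was measured, and each group has 6 arrays. The atABC1 gene is now named SUFB and takes part in building iron-sulfur clusters in plastids. Age, organ, growth conditions and the number of plants behind an array are not stated in the labels. The labels do not say that arrays came from separate plants, so the spread between arrays, and every p-value below, may be technical. The 4 genes were chosen by their annotated function together with their intensities and arrays at 0 in this same laf6 and WT comparison, known from earlier results. Their values in the 2 groups are therefore a description, and no test is given for them.

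In darkness a plant that has used up its sugars turns to proteins, amino acids and lipids as fuel. Peptidases such as tripeptidyl peptidase II, encoded by TPP2 (AT4G20850), cut short pieces from the ends of peptides released by larger proteases. Mitochondria break down branched-chain amino acids and lysine, and the electron transfer flavoprotein oxidoreductase ETFQO (AT2G43400) passes the electrons from that breakdown to ubiquinone. Mutants of Arabidopsis without ETFQO die early in prolonged darkness. Copper amine oxidases, the family of AT2G42490, oxidise amines and release an aldehyde, ammonia and hydrogen peroxide. The glyoxalase system removes methylglyoxal, a reactive by-product of sugar breakdown, and GLX2-1 (AT2G43430) is named for its glyoxalase II step. Whether the GLX2-1 protein carries out that step was not measured here.

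The table gives linear intensities, from 0 to 100 on every array, with no stated unit. They were quantile normalized between arrays, because the highest array median was 1.62 times the lowest. As deposited, the array medians were 0.178 to 0.202 in laf6 and 0.218 to 0.289 in WT. These ranges did not overlap, so the scaling acted differently on the laf6 and WT arrays. An array value of 0 is called "listed at 0", which says only that no signal was given, and the number of listed zeros does not depend on the scaling. Features at 0 numbered 491 to 674 of 3439 per laf6 array and 447 to 540 per WT array. Of the values of the 4 genes, 2 of 24 were listed at 0 in laf6 and 11 of 24 in WT. The larger number in WT came from GLX2-1, TPP2 and AT2G42490. ETFQO had more zeros in laf6, with 2 arrays at 0 against 1 in WT. Since zeros entered the choice of the genes, these counts are a description. All 4 were dim. Only 4 of the 24 laf6 values and 2 of the 24 WT values lay above the median feature of their own array.

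GLX2-1 had a signal on all 6 laf6 arrays. Its normalized intensity there was 0.0864 at the lowest, 0.130 at the median and 0.327 at the highest, with replicates 1 and 5 (0.302 and 0.327) well above the other 4. In WT it was listed at 0 on 4 of 6 arrays, with 0.0750 in replicate 2 and 0.338 in replicate 3. The groups overlapped, because the single highest value of the 12 arrays was that of WT replicate 3. The other 5 WT arrays lay below every laf6 array on the normalized scale, while as deposited WT replicate 2 (0.0840) was above laf6 replicate 4 (0.0732).

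TPP2 also had a signal on all 6 laf6 arrays, while 4 of 6 WT arrays listed it at 0. The laf6 values had a lowest of 0.0112, a median of 0.149 and a highest of 0.181. They formed a set of 4 arrays between 0.141 and 0.181 and 2 dimmer ones, replicate 4 (0.0387) and replicate 5 (0.0112). The WT arrays with a signal were replicate 2 (0.0389) and replicate 6 (0.0164). The 4 brighter laf6 arrays lay above every WT array, and the 2 dimmer ones were within the WT range.

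AT2G42490 had a signal on all 6 laf6 arrays, with a lowest value of 0.0706, a median of 0.136 and a highest of 0.347. In WT it was listed at 0 in replicates 1 and 4, and over the 6 arrays its median was 0.0397 and its highest value 0.0785. Of the laf6 arrays 5 were above every WT array on the normalized scale. After normalization the overlap came from a single pair of arrays, laf6 replicate 1 (0.0706) and WT replicate 3 (0.0785). As deposited, laf6 replicate 1 (0.0447) lay below WT replicates 3, 5 and 6 (0.0989, 0.0705 and 0.0746), and laf6 replicate 2 (0.0973) below WT replicate 3. The ratio of the group means was 4.66 on the normalized scale, laf6 over WT. As deposited, the ratio of the group medians was 2.32. Of the 3 genes with more zeros in WT, this one had a signal on the most WT arrays (4).

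ETFQO did not share this pattern. It was listed at 0 on 2 of 6 laf6 arrays, replicates 1 and 5, and on 1 of 6 WT arrays, replicate 1. The median was 0.117 in laf6 and 0.0744 in WT, and the highest values were 0.231 in laf6 and 0.229 in WT. Before normalization the medians stood in the opposite order, at 0.0958 in laf6 and 0.106 in WT. The arrays of the groups were interleaved over nearly the whole range. The log2 difference was 0.06 ± 1.25 (SE), and its sign turned under 11 of 24 alternative settings. Some of these settings could not change it, as they altered only how arrays were blocked or averaged or which rows were fitted. Each other scaling tried gave a negative value: -0.55 as deposited, -0.26 with median, -0.25 with 75th percentile and -0.03 with cyclic loess scaling.

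**Figure D1:**
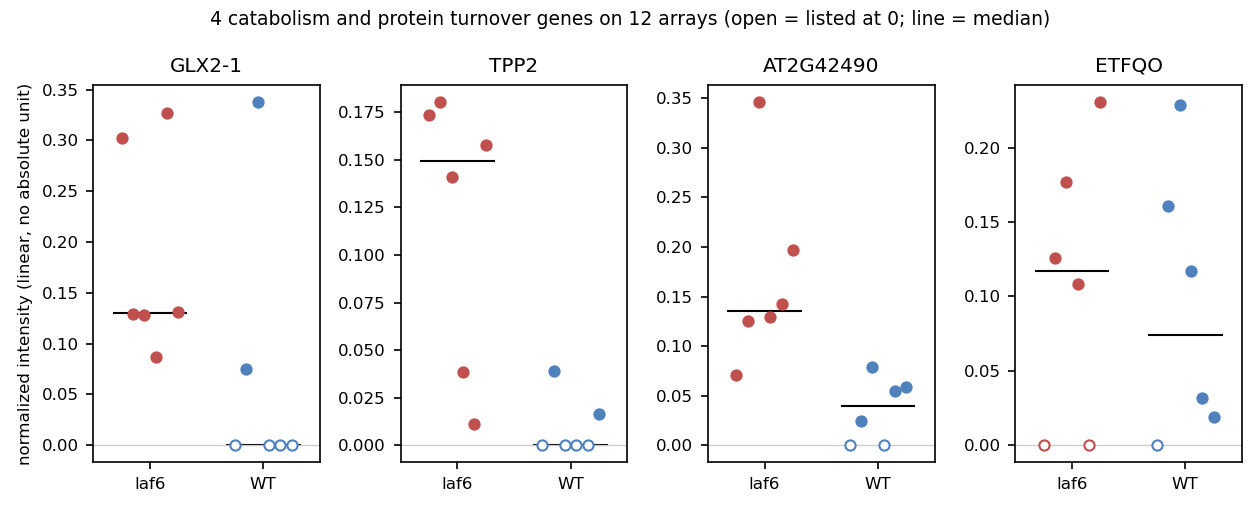
Normalized intensity (linear scale, no absolute unit) of the 4 genes on each of the 6 laf6 and 6 WT arrays, in the order of the replicate numbers. Open points are arrays listed at 0 and lines are group medians. GLX2-1, TPP2 and AT2G42490 have a signal on all 6 laf6 arrays, while WT arrays at 0 number 4, 4 and 2, and the ETFQO points of the groups are interleaved.

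For none of the 4 genes did the laf6 and WT arrays separate fully, while 17.9% of all features had groups that did not overlap. The pattern of zeros was less usual. Only 6 of 3439 features (0.174%) had a signal on all 6 laf6 arrays and were listed at 0 on at least 4 WT arrays, and GLX2-1 and TPP2 are 2 of these. The mirror pattern, a signal on all 6 WT arrays and at least 4 laf6 arrays at 0, was found for 47 features (1.37%). AT2G42490 shared its pattern, no laf6 array and 2 WT arrays at 0, with 23 features (0.669%, the gene included), and 110 features had the mirror pattern. Fewer zeros in laf6 than in WT were found for 10.1% of all features and more zeros in laf6 for 19.5%. ETFQO, with 2 laf6 arrays and 1 WT array at 0, was among 38 features (1.10%) with those counts. Since the counts of zeros entered the choice of the genes, these shares place the genes among the features and test nothing.

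**Figure D2:**
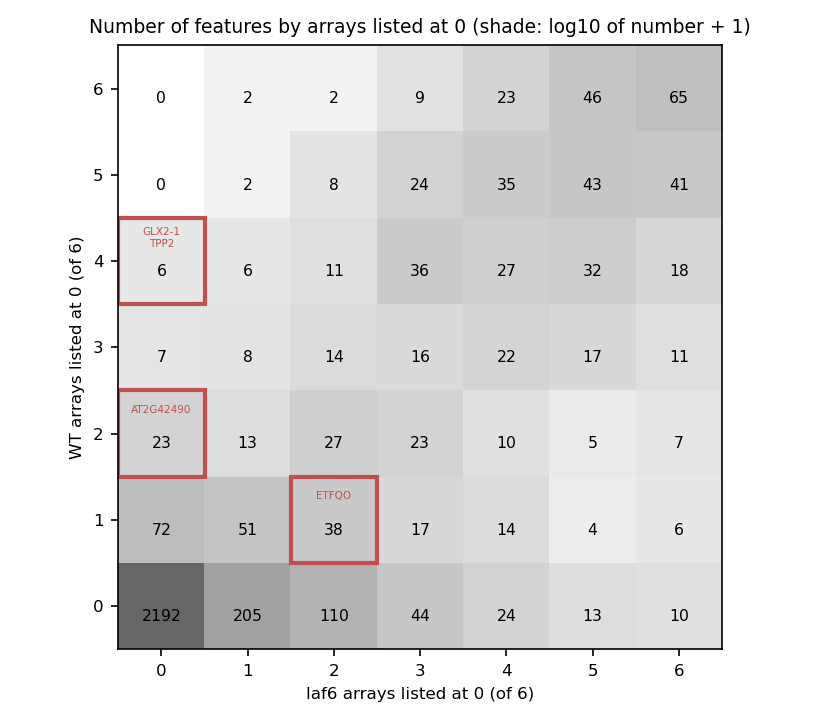
Number of features by how many of 6 laf6 arrays (horizontal) and how many of 6 WT arrays (vertical) listed them at 0, with the cells of the 4 genes outlined. GLX2-1 and TPP2 lie in a cell of 6 features, AT2G42490 in one of 23 and ETFQO in one of 38.

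The zeros of the 4 genes did not fall evenly over the WT arrays. WT replicate 1 listed all 4 genes at 0, replicate 4 listed 3, replicate 5 listed 2, replicates 3 and 6 listed 1 each, and replicate 2 listed none. WT replicate 1 also had the most features at 0 of the WT arrays (540), but WT replicate 4 had the fewest (447). In laf6 the zeros were those of ETFQO in replicates 1 and 5. Within laf6, replicate 5 was the highest laf6 array for GLX2-1 (0.327), the lowest for TPP2 (0.0112) and at 0 for ETFQO.

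A measure that does not depend on scaling is the share of the features of an array that lie below a gene. The laf6 medians of this share were 36.5% for GLX2-1, 39.6% for TPP2, 37.3% for AT2G42490 and 34.3% for ETFQO. In WT the median was 21.6% for AT2G42490 and 27.3% for ETFQO, and GLX2-1 and TPP2 had a median of 0 because 4 arrays were at 0. The highest share reached was 62.2% in laf6 and 63.2% in WT for GLX2-1, and 63.9% in laf6 and 27.9% in WT for AT2G42490. For TPP2 the highest share was 44.5% in laf6 and 21.5% in WT, and for ETFQO it was 51.5% in laf6 and 51.3% in WT. On this measure too, the groups differed least for ETFQO.

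**Figure D3:**
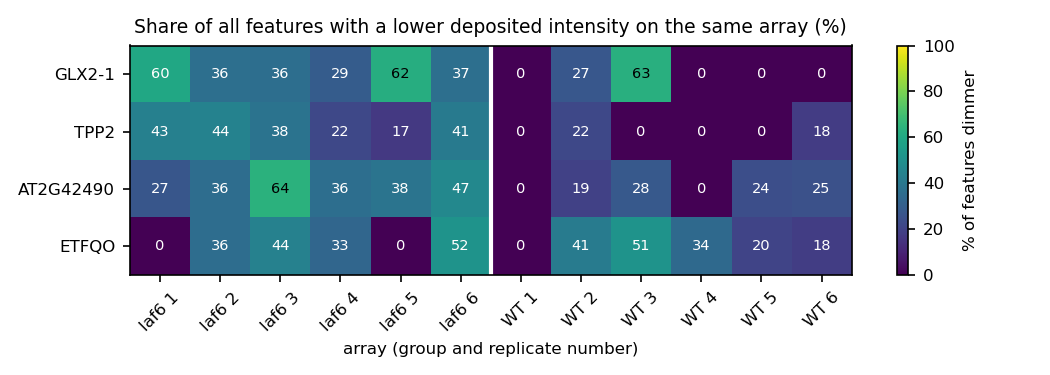
Share of the 3439 features with a lower deposited intensity on the same array, for the 4 genes (rows) on the 6 laf6 and the 6 WT arrays (columns). Cells at 0 are arrays listed at 0, and WT replicate 1 is at 0 for all 4 genes.

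The size of a log2 difference for these genes rests on how values at 0 are handled. With zeros raised to a floor of 0.00597 on the normalized scale, the log2 difference, laf6 minus WT, was 3.19 ± 1.04 (SE) for GLX2-1, 3.08 ± 0.78 for TPP2 and 2.60 ± 0.72 for AT2G42490 (n = 6 arrays each). The median difference of all 3438 rows fitted was -0.02. With an offset of 0.129 added before log2 in place of the floor, the differences of the 3 genes came close to each other, at 0.80 ± 0.34 for GLX2-1, 0.78 ± 0.20 for TPP2 and 0.82 ± 0.20 for AT2G42490. That of ETFQO was then 0.08 ± 0.33. A floor at the 5th in place of the 1st percentile of positive values gave 1.68 for GLX2-1, 1.66 for TPP2 and 1.81 for AT2G42490. The 3 genes had a positive difference under each of the 24 alternatives tried, but the choice of floor moved its size by more than the genes differed from each other. Alternatives that altered only how arrays were blocked or averaged, or which rows were fitted, could not change the difference. As the genes were chosen from these same arrays, the shared sign is a description. Leaving out replicates 1 and 2 of both groups, arrays that earlier results showed apart from the others, gave 3.22 for GLX2-1, 2.94 for TPP2, 2.37 for AT2G42490 and 0.04 for ETFQO.

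**Figure D4:**
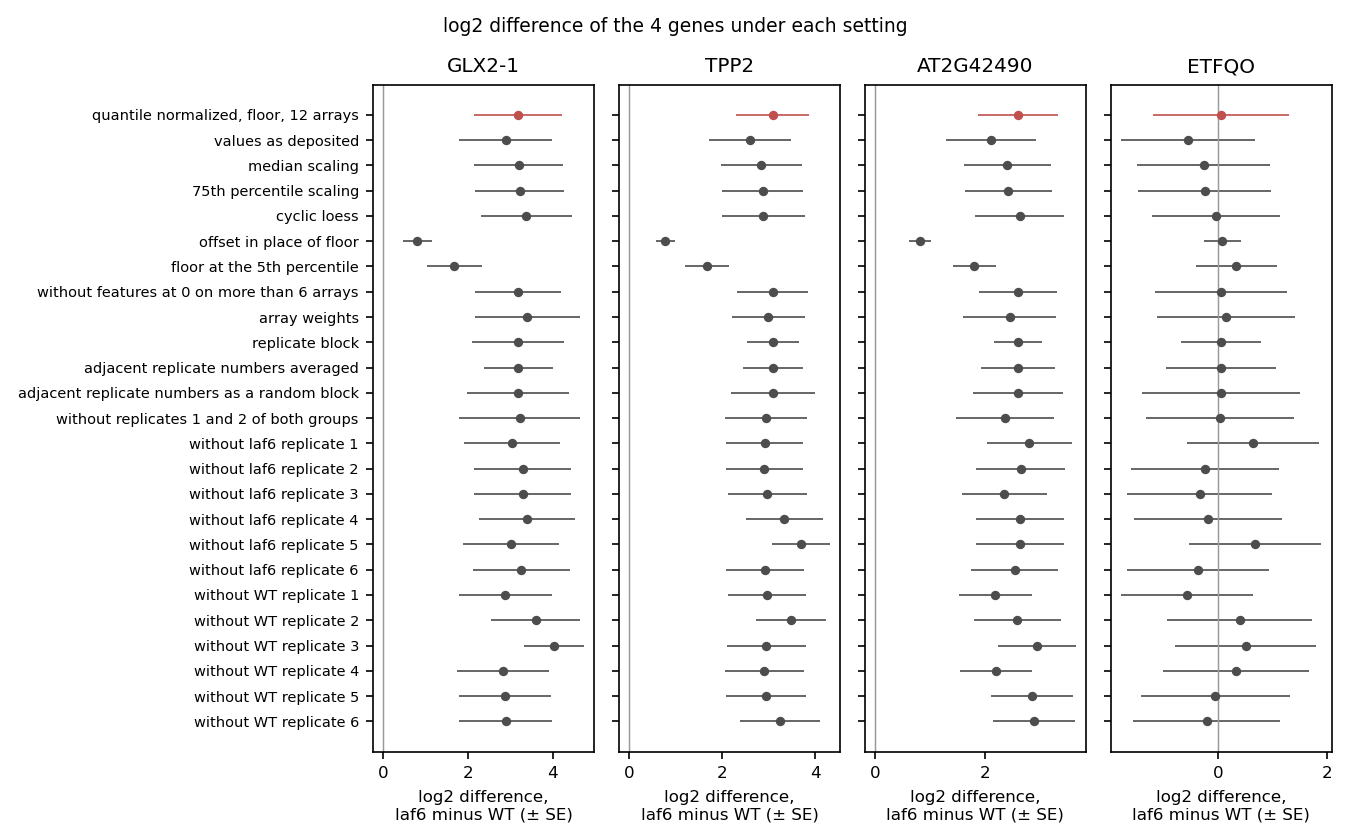
Log2 difference, laf6 minus WT, with its standard error, for the 4 genes under the setting used here (top) and 24 alternatives. The values of GLX2-1, TPP2 and AT2G42490 lie right of 0 in every row and are smallest with the offset (0.80, 0.78 and 0.82), and those of ETFQO lie on both sides of 0.

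A single array moved the value of GLX2-1 most. Without WT replicate 3, the bright WT array, its log2 difference was 4.03 ± 0.71. TPP2 moved most without laf6 replicate 5, its dimmest laf6 array, to 3.69 ± 0.62. AT2G42490 ranged from 2.19 without WT replicate 1 to 2.94 without WT replicate 3. ETFQO ranged from -0.57 without WT replicate 1 to 0.69 without laf6 replicate 5. The spread behind these values was large for ETFQO, whose pooled SD of 2.26 on the log2 scale was above that of 98.5% of all features. That of GLX2-1 (1.88) was above 93.0%, that of TPP2 (1.41) above 77.7% and that of AT2G42490 (1.30) above 74.2%.

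The 4 genes were compared with each other over the 12 arrays, as a description. Pearson correlations of the log2 values were 0.67 between GLX2-1 and AT2G42490, 0.62 between TPP2 and AT2G42490 and 0.55 between GLX2-1 and TPP2. After the group means were subtracted they were 0.34, 0.11 and 0.05 in the same order. ETFQO and GLX2-1 are close neighbours in the genome, with 2 protein-coding genes between them in the TAIR10.1 annotation, neither of which has a single-gene feature on the array. The correlation between this pair was 0.19 over the 12 arrays and 0.24 after the group means were subtracted. That of ETFQO was 0.26 with AT2G42490 and 0.25 with TPP2, and 0.37 with each of them after subtraction.

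Among the 586 other single-gene rows with a signal on at least 6 arrays, those most like each of the 4 genes were ranked by the Pearson correlation of log2 values over the 12 arrays. AT1G68660 was the row most like AT2G42490 (0.92, and 0.90 after the group means were subtracted). It had a log2 difference of 1.55, laf6 minus WT. AT5G27860 (0.85, and 0.70 after subtraction) and PRA1.B3 (0.84, and 0.59) followed. For TPP2 the closest rows were PRK, the phosphoribulokinase gene of the Calvin cycle (0.85, and 0.61 after subtraction), AT5G10910 (0.85, and 0.60) and AT5G66780 (0.84, and 0.53). For GLX2-1 they were AT5G19210 (0.79, and 0.77 after subtraction), AT1G50000 (0.77, and 0.50) and AT5G14590 (0.76, and 0.49). For ETFQO they were NdhN, a subunit of the plastid NADH dehydrogenase-like complex (0.75, and 0.89 after subtraction), AT2G45500 (0.71, and 0.71) and AT2G47680 (0.71, and 0.78). NdhN was listed at 0 on 2 laf6 and 3 WT arrays, and the 3 arrays that listed ETFQO at 0 (laf6 replicates 1 and 5 and WT replicate 1) listed NdhN at 0 too.

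Other genes of these pathways were looked for through 10 lists of loci and name words, covering the breakdown of aldehydes, amino acids, amines, fatty acids, sugars and starch, peptidases, the proteasome and ubiquitin, autophagy, the respiratory chain and dark-induced genes. This search found 5 further genes with a single-gene feature, and 7 of the 10 lists held no further gene. It misses genes outside the listed loci whose names hold no list word. AT2G42490 itself was not found by the amine oxidation list. None of 18 marker genes of organs, seeds, epidermal cells and darkness had a single-gene feature. Neither the dark adaptation nor the organ could therefore be checked. In the limma fit, with Benjamini-Hochberg adjustment over all features, 1 of the 5 genes fell in laf6, none rose and 4 did not pass. At an unadjusted p under 0.05, 1 was higher and 1 lower. The gene that fell was NdhS. Like NdhN it belongs to a plastid complex, although both were placed in the list for the mitochondrial respiratory chain. AT4G02580, AT4G12270 and SPPA had positive differences that did not pass. Of all features, 12.4% rose and 13.8% fell in laf6, against 7.33% and 26.2% with the values as deposited. The median log2 difference was 0.91 over the 5 genes, NdhS and NdhN included, against -0.02 over all features. That over the 5 genes was 0.55 as deposited and 0.32 with the offset.

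NdhS, a subunit of the plastid NADH dehydrogenase-like complex found through its name in the respiratory chain list, was the gene that fell. Its normalized intensity had a lowest value of 4.22, a median of 5.24 and a highest of 5.82 in laf6, against 9.73, 11.1 and 12.1 in WT. The groups did not overlap, and the log2 difference was -1.09 ± 0.09 (SE, limma adjusted p = 5.42e-06). NdhN of the same complex was dim, with a highest value of 0.0785 in laf6 and 0.0222 in WT and a log2 difference of 1.67 ± 0.77 (limma adjusted p = 0.151).

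AT4G02580, placed by its locus in the respiratory chain list, had a signal on every array. Its lowest, median and highest values were 0.146, 0.326 and 0.373 in laf6, against 0.0791, 0.138 and 0.284 in WT. Of the laf6 arrays 4 were above every WT array, and the difference of 0.91 ± 0.33 on the log2 scale did not pass (limma adjusted p = 0.0678). It passed without laf6 replicate 4 (limma adjusted p = 0.0220) and without WT replicate 5 (limma adjusted p = 0.0285). With the replicate number as a block it passed too (limma adjusted p = 0.0239), although the labels do not say that equal numbers share anything. Over 25 alternatives the limma adjusted p ranged from 0.0220 to 0.334.

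AT4G12270, placed by its locus in the amine oxidation list, was listed at 0 on 2 of 6 laf6 arrays and on 4 of 6 WT arrays. Its highest values were 0.193 in laf6 and 0.0557 in WT. The log2 difference of 2.14 ± 1.01 did not pass (limma adjusted p = 0.158). SPPA, a signal peptide peptidase and the single other gene of the peptidase list with a single-gene feature, was listed at 0 on 4 of 6 laf6 arrays and 5 of 6 WT arrays, with a highest value of 0.0794 in laf6 and 0.000241 in WT. Its log2 difference of 0.74 ± 0.58 did not pass either (limma adjusted p = 0.411). That value rested on laf6 replicate 1, without which it was 0.18, and it was 0.13 with the offset.

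**Figure D5:**
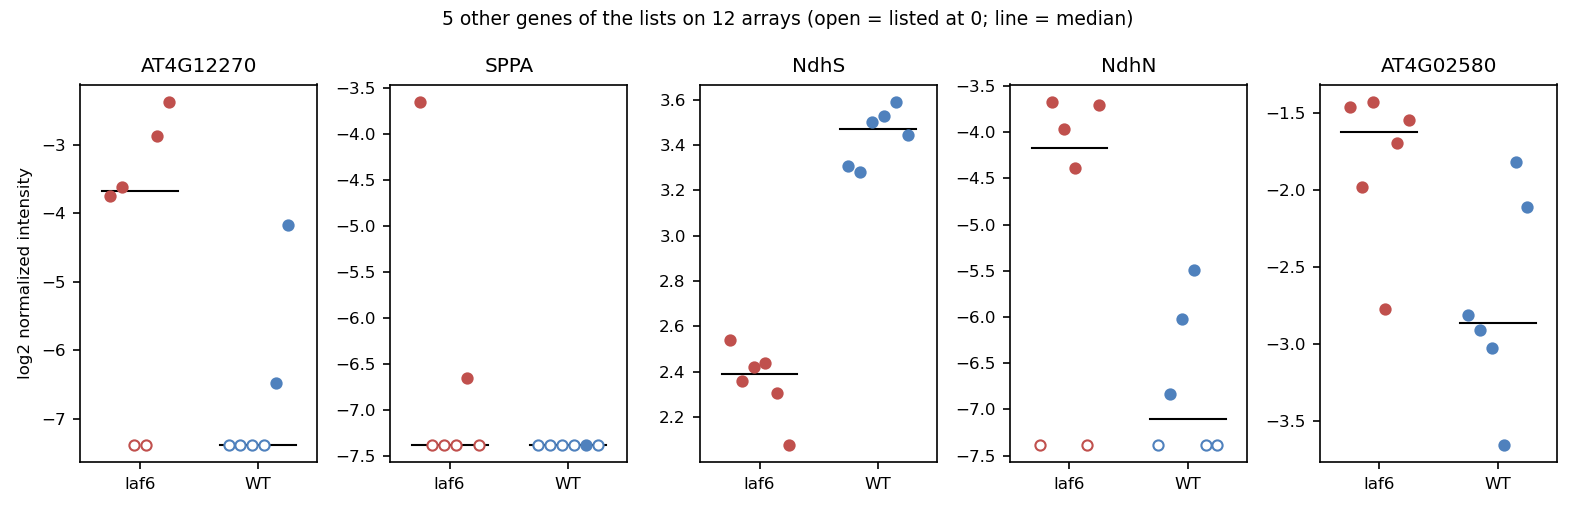
Log2 normalized intensity of the 5 other genes of the lists on the 6 laf6 and 6 WT arrays, in the order of the replicate numbers, with open points for arrays listed at 0 (drawn at the floor) and lines for group medians. NdhS separates the groups, with laf6 below WT, and the other 4 genes overlap.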

How the data were processed

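Total RNA of 6 laf6 and 6 WT arrays was compared. Per the deposited table, the values are intensities on a linear scale, 1 per feature and array. What the authors did to make them, including background correction, scaling and the scanner, is not stated in the labels or the table. Replicate numbers come from the titles. Single genes were listed for 692 of 3439 features, of which 690 were matched to the RefSeq table of TAIR10.1. The 2 features of AT2G25870 were averaged, which left 3438 rows.

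Array medians differed by more than 10%, so arrays were quantile normalized. Of the values 15.7% were 0, so values were raised to the 1st percentile of positive normalized values (0.00597) and converted to log2. limma 3.58.1 (lmFit, eBayes, two-sided, no covariates) in R 4.3.3 was fitted to all rows, with Benjamini-Hochberg adjustment over all of them and a threshold of 0.05. Standard errors are limma's moderated ones. The pipeline was tested on simulated data with normal noise on the log2 scale. Array scaling there did not differ by group, unlike the array medians here. The test gives no measure of how well differences of genes this dim are recovered. Precision is limited by the number of arrays and by how close the genes lie to the floor, and no detection calls were given.

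The 4 genes and the lists were chosen with earlier results of these data known. Named are the 4 genes, members of the lists (up to 3 in each direction past the threshold, or the 1 with the smallest p), the 3 rows most like each gene, and relatives of the 4 genes. As the lists held 5 further genes, all 5 are given, NdhN and SPPA among them.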

Additional observations from a re-analysis of the deposited data

Results flagged for a closer look

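Among 18 groups of 6 arrays (4 genes and 5 list genes in laf6 and WT), 2 held an array far from the other 5. About 1 in 20 such groups would be expected by chance if no values were tied. Here 10 of the 18 groups had 2 or more arrays at the floor (-7.39 on the log2 scale) and 1 had all 6 there, so that rate does not hold here. Both arrays lie in groups with 4 arrays at the floor. SPPA stood at -3.65 in laf6 replicate 1, with the next array at -6.66. AT4G12270 stood at -4.17 in WT replicate 6, with the next array at -6.48. None of the 8 groups of GLX2-1, TPP2, AT2G42490 and ETFQO held such an array.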

How the results depend on the processing

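GLX2-1, TPP2 and AT2G42490 kept their direction under all 24 alternatives. This is a description, since the genes were chosen from these same arrays and some alternatives could not change the difference. Their log2 differences moved by more than the spread between arrays with the offset (0.80, 0.78 and 0.82), and that of TPP2 also with the higher floor (1.66). Leaving out 1 array at a time gave 2.83 to 4.03 for GLX2-1, 2.90 to 3.69 for TPP2, 2.19 to 2.94 for AT2G42490 and -0.57 to 0.69 for ETFQO. Of the list genes, 1 (NdhS, of a plastid complex) fell under all 25 alternatives. The count that rose was 1 with the higher floor (NdhN, limma adjusted p = 0.0444, range over alternatives 0.0444 to 0.308) and with the replicate block, and 0 to 1 over arrays left out. Features that rose and fell numbered 252 and 902 as deposited, against 428 and 474 here. When only single-gene features were adjusted they numbered 71 and 101 of 691 rows, another base than the 3438 rows behind 428 and 474. With adjacent replicate numbers averaged, which leaves fewer samples, 256 fell. The cause of these changes was not tested. With the replicate number as a block, AT4G02580 passed (limma adjusted p = 0.0239, range 0.0220 to 0.334). Deviations from the group means of same-numbered arrays correlated at 0.0966 to 0.184 and each laf6 array correlated best with its own number in WT, a hint from the data, not the design. Within a group, adjacent replicate numbers were closer than other pairs in 55.4% of feature and group combinations, and in 2 of 8 for the 4 genes. Dim signal limits all 4 genes.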
